A study of Mus musculus with 9 samples.

Results

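The 10 early response genes described here were 5 Krüppel-like factors (Klf2, Klf4, Klf6, Klf9 and Klf10), 2 early growth response factors (Egr1 and Egr3) and 3 genes of the immediate early response (IER) group (Ier2, Ier3 and Ier5). They were listed by name from the 56289 genes of the deposited table, with earlier results of these data known, and all 10 had a row. RNA came from cultures labelled RAW264.7, a mouse macrophage-like cell line of the BALB/c strain, grown in DMEM with serum. The Con group was untreated, the TNF-α group received recombinant human TNF-α at 20 ng/ml, and the TNF-α+WBT group received the same cytokine together with 1.0 μg/ml of an extract of Wang Bi tablet, a herbal medicine. Treatment lasted 24 h. The labels of the last group read WBP in place of WBT, which was read here as the paper's TNF-α+WBT group. Each group had 3 poly(A) libraries, and all came from the same line. The paper calls them 3 biological replicates, without saying how the cultures were separated, and p-values measure the spread between these libraries.

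KLF and EGR proteins are zinc finger transcription factors. KLF proteins bind GC-rich and CACCC sequences, and EGR proteins bind a GC-rich site that overlaps in letters with the KLF sites. Many of these genes are switched on within minutes to an hour of a growth factor, cytokine or stress signal without new protein synthesis, through serum response factor (SRF), MAP kinases or NF-κB, and their transcripts decay quickly. A measurement at 24 h therefore reads the level long after the first wave. In macrophages, Klf2 and Klf4 are known as restraints on inflammatory genes, Klf6 as a promoter of them, and Egr1 as a factor of macrophage differentiation.

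The libraries held an estimated 16837105 to 25882967 fragments, inferred from the smallest steps between FPKM values (fragments divided by transcript length and library depth), and the 9 libraries were all distinct. These approximate depths differed by group: 20208132 to 25882967 in Con, 19069403 to 22773216 in TNF-α and 16837105 to 19798083 in TNF-α+WBT. Every TNF-α+WBT library was thus estimated to be shallower than every Con library. All 10 genes passed the filter on low values, as did 25417 genes in all. Estimated fragments per library ran from 57.0 to 206 for Egr3, from 66.9 to 177 for Klf2, from 322 to 841 for Egr1 and from 1806 to 2560 for Klf6, so the levels of Egr3 and Klf2 carry the largest counting error of the group. The check of the treatment passed in 4 of 6 genes, which were chosen with earlier results of these data known. Ccl2, a chemokine gene that TNF-α induces, rose from 36.0 ± 2.86 FPKM in Con to 265 ± 3.51 in TNF-α (SD, n = 3 each; limma adjusted p = 8.55e-08), and Vcam1, Nfkbia and Tnfaip3 rose as well. Birc3 (0.0344 FPKM in Con and 0.215 in TNF-α, limma adjusted p = 0.196) and Icam1 (0.00715 and 0.0250, 0.819) were scarce and did not pass. The cell type label was not borne out by its markers. Of 12 macrophage markers, 7 were listed at 0 FPKM in all 9 libraries, the leukocyte gene Ptprc and the myeloid factor gene Spi1 among them, and only Cd14 exceeded 1 FPKM throughout. Of 10 fibroblast markers 8, and of 8 Schwann cell markers 7, exceeded 1 FPKM in every library, while none of 5 endothelial markers did. The cells are therefore referred to by their label only.

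The sequences before the start sites of Ier3, Klf9 and Klf6 are shown because these genes changed with TNF-α and a reference window was available for each. The window is the 250 bases before the RefSeq start site on the gene's strand in GRCm38.p6, at chr17:35821463-35821712 for Ier3, chr19:23140976-23141225 for Klf9 and chr13:5861239-5861488 for Klf6, all on the plus strand. Capitals mark the letters that matched any of 8 motifs on either strand.
Ier3: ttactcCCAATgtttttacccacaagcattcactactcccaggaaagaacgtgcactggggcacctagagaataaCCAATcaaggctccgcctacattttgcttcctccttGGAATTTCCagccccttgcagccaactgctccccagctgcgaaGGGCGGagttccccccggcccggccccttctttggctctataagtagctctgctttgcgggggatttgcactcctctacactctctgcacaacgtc
Klf9: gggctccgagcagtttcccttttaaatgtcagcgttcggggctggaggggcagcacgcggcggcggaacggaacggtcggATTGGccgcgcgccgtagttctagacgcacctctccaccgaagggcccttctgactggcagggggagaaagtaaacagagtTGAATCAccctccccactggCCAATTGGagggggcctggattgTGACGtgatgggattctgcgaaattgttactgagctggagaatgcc
Klf6: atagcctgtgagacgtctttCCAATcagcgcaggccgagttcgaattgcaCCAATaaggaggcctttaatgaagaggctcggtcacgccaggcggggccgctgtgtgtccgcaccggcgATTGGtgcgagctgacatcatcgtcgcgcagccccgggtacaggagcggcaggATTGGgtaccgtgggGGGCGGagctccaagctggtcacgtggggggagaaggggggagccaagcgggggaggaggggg
RefSeq places the start sites of Ier3 and Klf6 slightly downstream of those in GENCODE, so the last bases of these windows lie in the first exon of the GENCODE models.

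The Ier3 window held GGAATTTCC, a match to the κB motif GGNNTTTCC, at positions -139 to -131, counted in bases from the start site. That motif, which NF-κB binds, was found in 4.9% of 32851 windows of the same length. The Klf9 window held TGAATCA at -89 to -83. It matched TGANTCA (6.7% of windows), a loose form of the AP-1 motif that allows any middle base. The cyclic AMP response (CRE) motif TGACG (17.8%) lay in the same window at -46 to -42. In Klf6 only the GC box GGGCGG (32.7% of windows) and 4 CCAAT boxes (CCAAT, 33.8%) were matched. The windows of Klf2 and Klf4 held 1 and 2 matches to the EGR motif GCGNGGGCG (4.7%), each overlapping a GC box. Ier5 held 2 GC boxes and 2 CCAAT boxes. The CArG box that SRF binds (1.5%) and the TATA motif TATAAA (12.4%) had no match in any of the 6 windows available. For TATA only these exact letters were searched, and near forms such as the TATAAG of the Ier3 sequence above did not count. Windows were not used here for Klf10, Egr1, Egr3 and Ier2. The motif letters were chosen after the sequences had been seen, and a match describes letters, not binding.

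**Figure D1:**
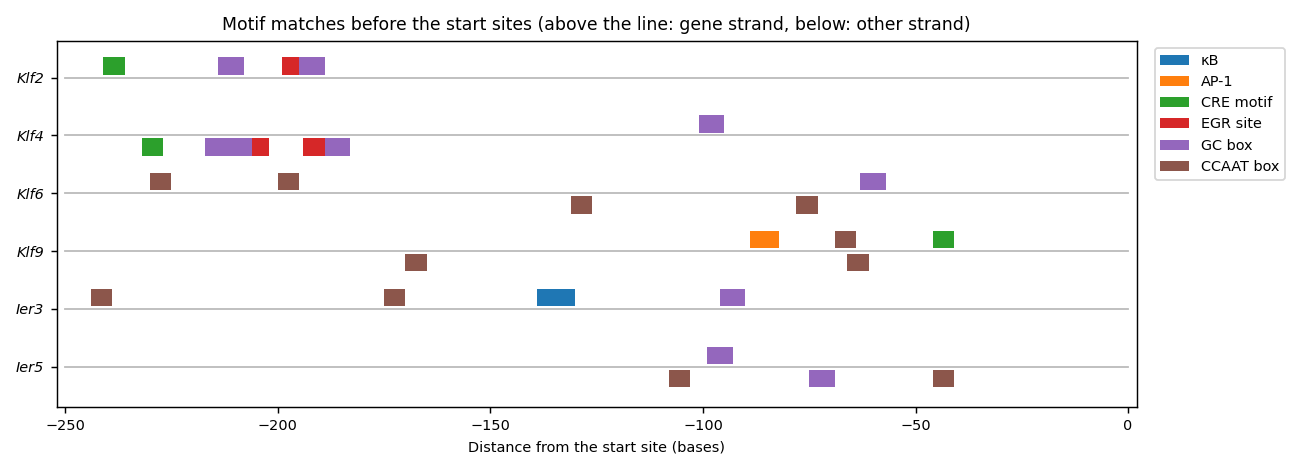
Motif matches in the 250 bases before the start sites of Klf2, Klf4, Klf6, Klf9, Ier3 and Ier5 (x axis, distance from the start site in bases), drawn above the line for the gene's strand and below it for the other. The κB match lies in the Ier3 window and the match to the loose AP-1 motif in the Klf9 window, and no other of the 6 windows holds either.

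In untreated cells the levels, which are per length and so comparable between genes, fell in the order Klf9, Ier5, Klf6, Ier3, Ier2, Klf10, Egr1, Klf4, Klf2 and Egr3, from a mean of 27.0 FPKM down to 2.26 FPKM. No neighbouring genes in this order overlapped in their 3 Con libraries, although the lowest Ier3 library (18.42 FPKM) and the highest Ier2 library (18.37 FPKM) lay close together. With TNF-α the order became Ier3, Klf6, Ier5, Klf9, Ier2, Klf10, Klf4, Egr1, Klf2 and Egr3, again without overlap between neighbours. Ier3 had moved from the fourth place to the first and Klf9 from the first to the fourth, and Klf4 had passed Egr1. The same order held with TNF-α+WBT, where the libraries of Ier5 (22.3 to 24.9 FPKM) and Klf9 (21.8 to 24.3 FPKM) overlapped. The order of mean levels is a description, without a test between genes.

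**Figure D2:**
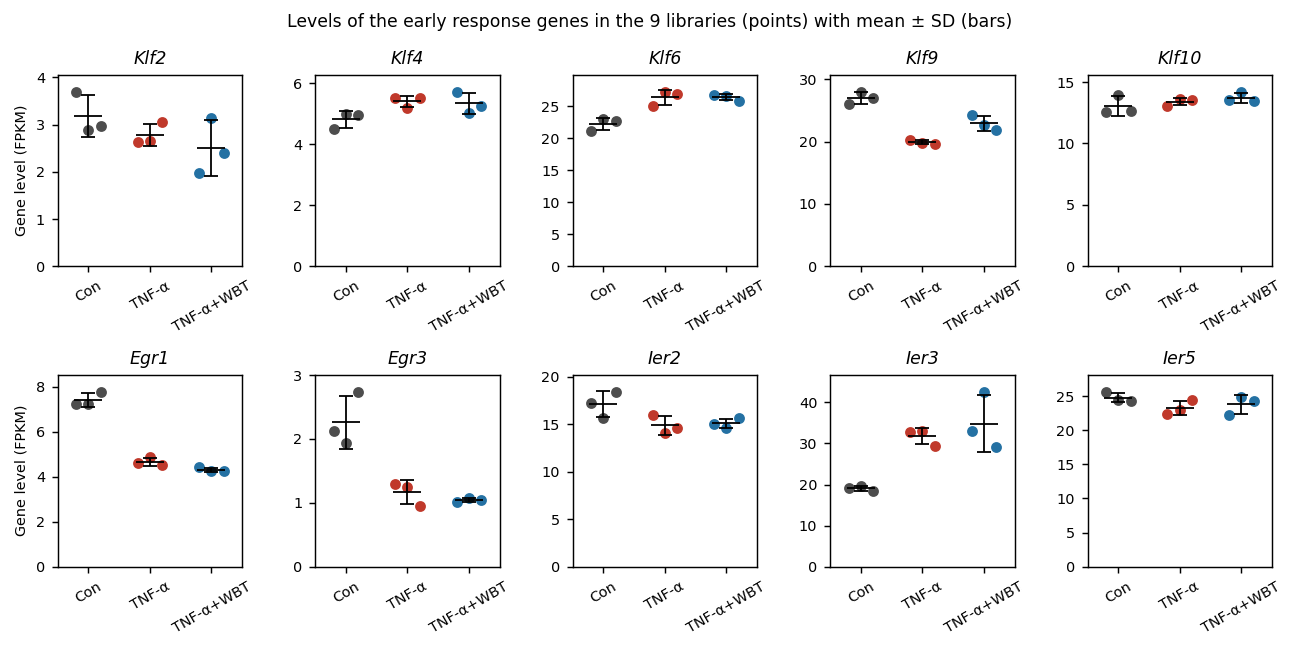
Level of each of the 10 genes (y axis, FPKM, starting at 0) in the 3 libraries of Con, TNF-α and TNF-α+WBT, with points for libraries and bars for the mean ± SD. Egr1, Egr3 and Klf9 sit lower and Ier3 and Klf6 higher in all TNF-α libraries than in all Con libraries, and the Ier3 point at 42.5 FPKM stands above the other TNF-α+WBT libraries.

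The comparison of TNF-α with Con asks which of these genes differed 24 h after the cytokine was added, with no earlier time measured. By limma on log2(FPKM + 0.1), with Benjamini-Hochberg adjustment over all 25417 genes, 5 of 10 passed an adjusted p under 0.05, against 4.86% of all genes tested. Ier3 and Klf6 rose (2.94% of all genes rose), and Egr1, Egr3 and Klf9 fell (1.93% fell). None of the 10 passed the study's own thresholds, a more than 2-fold difference at p under 0.05 before adjustment, which 2.42% of all genes passed, and 6 passed the unadjusted p alone (16.1% of all genes). The absolute log2 fold change had a median of 0.22 over the 10 genes and of 0.16 over all genes tested, or 0.12 over the 12684 genes that averaged 1 FPKM or more. Of those better expressed genes 8.37% were called.

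Both EGR genes fell. Egr1, which lies at chr18:34859823-34864984 on the plus strand of GRCm38 and encodes the best studied EGR factor, read 7.24, 7.25 and 7.76 FPKM in Con and 4.59, 4.86 and 4.52 in TNF-α. Every TNF-α library lay below every Con library. The means were 7.42 ± 0.295 and 4.66 ± 0.181 (SD, n = 3 each), and the fold was 0.633, a log2 fold change of -0.66 (SE 0.065, adjusted p = 0.000602). Leaving out any library kept it between -0.69 and -0.63.

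Egr3 (chr14:70077203-70082614, plus strand), a related factor of the same family, was the lowest of the 10. Its libraries read 2.13, 1.93 and 2.73 FPKM in Con and 1.30, 1.24 and 0.954 in TNF-α, again without overlap. The log2 fold change was -0.90 (SE 0.18, adjusted p = 0.0245). The fold stayed between -0.9997 and -0.76 on the log2 scale when each library was left out, but the call was lost. The adjusted p rose to 0.0677 without Con replicate 1 and 0.088 without Con replicate 3. It rose to 0.0612 without TNF-α replicate 2 and 0.0827 without TNF-α replicate 3. In a weighted limma model (voom) of estimated fragments it was 0.224, the highest over 20 alternatives. The fall was also smaller in that model, at a log2 fold change of -0.62 (SE 0.257). With a pseudocount of 1 it was -0.59, and the call was kept (limma adjusted p = 0.023).

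The other EGR genes were scarce and did not pass. Egr2 averaged 0.855 FPKM in Con and 0.542 in TNF-α (log2 fold change -0.60, adjusted p = 0.33), and Egr4 0.444 and 0.254 (-0.75, adjusted p = 0.433). Of the genes for the NAB corepressors, which bind EGR proteins and are themselves EGR targets, Nab2 had 33.7 FPKM in Con and 26.5 in TNF-α (-0.34, adjusted p = 0.0738) and Nab1 a log2 fold change of 0.15 (adjusted p = 0.302). So 2 of the 6 EGR and NAB genes fell, where 1.93% of all genes did, and none rose, and the median log2 fold change of the list was -0.63.

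The KLF genes went in different directions. Klf9 (chr19:23141226-23168134, plus strand), a repressor that glucocorticoids and stress can induce, read 26.1, 28.0 and 27.0 FPKM in Con and 20.3, 19.9 and 19.6 in TNF-α, without overlap. It fell by 0.44 on the log2 scale (SE 0.049, adjusted p = 0.00126), a fold of 0.739. Klf6 (chr13:5861482-5870394, plus strand) read 21.1, 22.9 and 22.6 FPKM in Con and 25.1, 27.2 and 27.0 in TNF-α. All its TNF-α libraries were higher than all Con libraries, and the rise was small, 1.19-fold (log2 0.25, SE 0.048, adjusted p = 0.0216). That call was lost without Con replicate 1 (adjusted p = 0.0669), Con replicate 3 (0.0548), TNF-α replicate 2 (0.0838) or TNF-α replicate 3 (0.086), within a range of 0.00796 to 0.112 over the 20 alternatives.

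Klf4 (chr4:55527143-55532466, minus strand), also a pluripotency factor, read 4.51, 4.99 and 4.95 FPKM in Con and 5.53, 5.20 and 5.50 in TNF-α. These groups did not overlap, but the log2 difference of 0.17 had an interval from -0.0086 to 0.34 and did not pass (adjusted p = 0.339). For Klf2 (chr8:72319033-72321656, plus strand), which ERK5 and MEF2 factors drive, Con read 3.69, 2.88 and 2.97 FPKM and TNF-α 2.63, 2.65 and 3.06. Its groups overlapped, and the 95% interval of the log2 difference, from -0.58 to 0.22, allows both a fall and a small rise (adjusted p = 0.71). Klf10 (chr15:38291463-38300706, minus strand), known as a gene that TGF-β induces early, had overlapping groups with means of 13.0 and 13.4 FPKM and an interval of only -0.082 to 0.17 (adjusted p = 0.795).

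Of the 17 KLF genes of the mouse listed, 15 were tested, and Klf15 was the remaining one past the threshold. It fell from 6.22 ± 0.281 to 4.13 ± 0.111 FPKM (SD, n = 3 each; log2 fold change -0.58, adjusted p = 0.00228). Klf6 was thus the gene that rose and Klf9 and Klf15 were those that fell, where 2.94% of all genes rose and 1.93% fell. Klf6 and Klf9 belong to the genes already counted above. The median log2 fold change of the family was 0.022.

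Among the 4 IER genes tested Ier3 was the one called, where 2.94% of all genes rose and 1.93% fell. Ier3 (chr17:35821684-35822923, plus strand), a short-lived stress protein gene that NF-κB is known to induce, read 19.3, 19.6 and 18.4 FPKM in Con and 32.8, 33.1 and 29.5 in TNF-α. The groups lay far apart. The rise was 1.66-fold, a log2 fold change of 0.73 (SE 0.12, adjusted p = 0.0104), and ranged from 0.70 to 0.78 when each library was left out.

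Ier2 (chr8:84661331-84662852, minus strand), which encodes a small nuclear protein, read 17.3, 15.7 and 18.4 FPKM in Con and 16.01, 14.1 and 14.6 in TNF-α, with overlap. Its log2 difference of -0.20 passed the threshold before adjustment but not after it (adjusted p = 0.207). Ier5 (chr1:155096361-155099636, minus strand), a partner of heat shock factor HSF1, had means of 24.8 ± 0.692 and 23.3 ± 1.07 FPKM (SD, n = 3 each) and a log2 difference of -0.092 (adjusted p = 0.481). None of 6 heat shock genes passed either by this test, with 0 also at the unadjusted threshold. A further IER gene, Ier5l, had a log2 difference of 0.14 (adjusted p = 0.263).

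In counts of separation, 6 of 10 genes had TNF-α and Con libraries that did not overlap (Klf4, Klf6 and Ier3 above, Klf9, Egr1 and Egr3 below), against 21.2% of all genes tested. An exact permutation test of a single gene cannot go below p = 0.1 with 3 libraries against 3, and is not given for each gene. In bulk RNA, fewer cells of a type and less of a transcript per cell cannot be told apart. The summed level of the Schwann cell markers, 906 to 964 FPKM in Con, was 739 to 788 in TNF-α and 792 to 821 in TNF-α+WBT, and 5 of those 8 markers fell, Ngfr among them. Fibroblast markers summed to 3486 to 3733, 3869 to 3946 and 3772 to 3867 FPKM, a sum carried by abundant matrix genes. Of the 9 tested, Col1a1 (0.28) and Col1a2 (0.27) rose and Pdgfrb fell (-0.52, adjusted p = 5.95e-05). Of 6 cell division genes 1, Top2a, rose by 0.28 on the log2 scale (adjusted p = 0.0135). By the same test 2.94% of all genes rose and 1.93% fell. The part of these shifts in the levels of the KLF, EGR and IER genes was not tested.

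**Figure D3:**
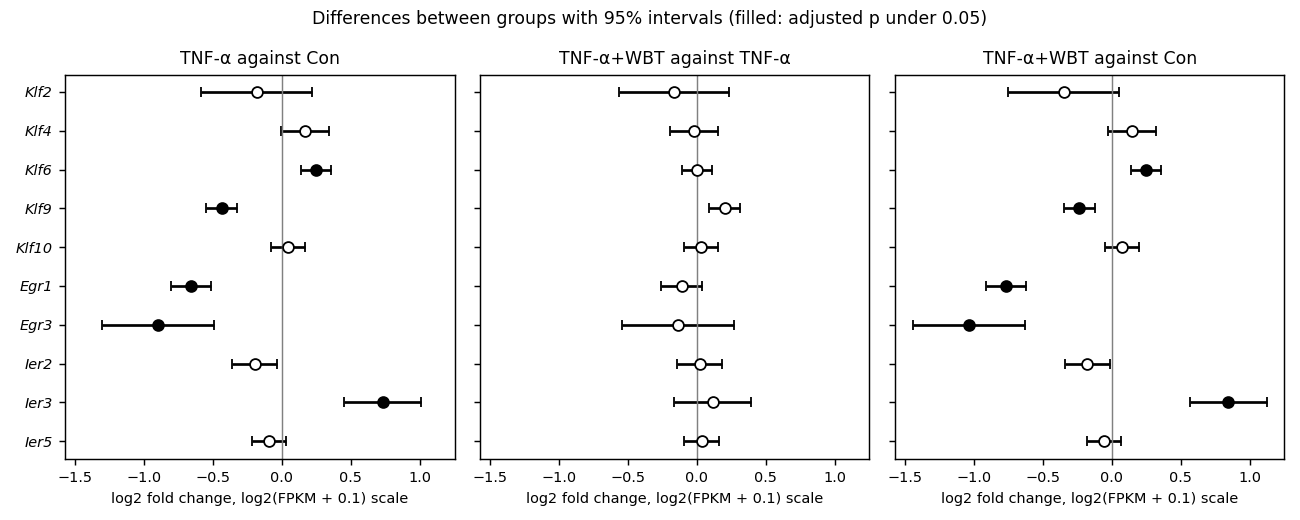
Difference of each of the 10 genes in the 3 comparisons (x axis, log2 fold change on the log2(FPKM + 0.1) scale, with 95% intervals from limma), filled where the call passed after adjustment. In TNF-α+WBT against TNF-α no point is filled, and Klf9 (0.20) is the gene whose interval lies clear of 0.

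The comparison of TNF-α+WBT with TNF-α asks which of these genes the extract shifted in stimulated cells. By limma none of the 10 passed an adjusted p under 0.05, against 0.00393% of all genes (1 of 25417), none passed the study's thresholds (1.12%), and 1, Klf9, had an unadjusted p under 0.05 (6.31% of all genes). The weighted model of estimated fragments called none either. The absolute log2 difference had a median of 0.071 over the 10 genes, of 0.12 over all genes and of 0.071 over the better expressed ones.

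Klf9 read 24.3, 22.7 and 21.8 FPKM with TNF-α+WBT, all above the 20.3, 19.9 and 19.6 of TNF-α and all below the 26.1 to 28.0 of Con. The log2 difference from TNF-α was 0.20 (SE 0.049, 95% interval 0.090 to 0.31, limma unadjusted p = 0.00295, rank 150 of all genes), and it failed the adjustment (0.497, and 0.416 to 0.739 over the alternatives). It was positive under all 20 alternatives, between 0.16 and 0.24. The fall of Klf9 with TNF-α and this difference share the TNF-α libraries, so their opposite signs are not independent.

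Egr1 lay the other way. Its 4.41, 4.27 and 4.26 FPKM with TNF-α+WBT were all slightly below the 4.59, 4.86 and 4.52 of TNF-α, but the log2 difference of -0.11 did not pass (95% interval -0.26 to 0.040, adjusted p = 0.842). Egr3 read 1.02, 1.07 and 1.04 FPKM, within the range of the TNF-α libraries (-0.14, interval -0.54 to 0.27, adjusted p = 0.936). So 2 of 10 genes had groups that did not overlap, where 11% of all genes did.

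For Ier3 the TNF-α+WBT libraries read 33.0, 42.5 and 29.0 FPKM, and the spread within this group (SD 6.92) exceeded its distance from the TNF-α mean. The log2 difference was 0.12 (interval -0.16 to 0.39, adjusted p = 0.917), and it turned to -0.037 without TNF-α+WBT replicate 2. Klf6 stood at 26.8, 26.6 and 25.8 FPKM, all within the range of the TNF-α libraries, and its interval was the narrowest, from -0.11 to 0.11 (adjusted p = 1).

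The remaining genes also overlapped between TNF-α+WBT and TNF-α. Klf4 averaged 5.34 ± 0.346 FPKM, Klf10 13.7 ± 0.408, Ier2 15.1 ± 0.514 and Ier5 23.9 ± 1.37 (SD, n = 3 each), with log2 differences of -0.021, 0.033, 0.020 and 0.034. The widest of their 95% intervals was that of Klf4, from -0.20 to 0.15. Klf2, at 1.98, 3.15 and 2.39 FPKM, had the most variable TNF-α+WBT libraries relative to its level, and its interval from -0.57 to 0.24 leaves a change of either sign possible. The misses do not show that the extract left these genes alone.

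Against Con, TNF-α+WBT differed at an adjusted p under 0.05 in 5 of 10 genes (3.71% of all genes), 2 of them higher (2.31%) and 3 lower (1.4%), and 6 passed before adjustment (14.7%). Egr3 also passed the study's thresholds (2.29%), and it alone. This comparison shares libraries with both others. Ier3 was 1.80-fold higher (log2 0.85, SE 0.12, adjusted p = 0.00619) and Klf6 1.19-fold higher (0.25, adjusted p = 0.0257). Egr1 was lower by a log2 fold change of -0.77 (SE 0.065, adjusted p = 0.000321), Egr3 by -1.04 (SE 0.18, adjusted p = 0.015) and Klf9 by -0.24 (SE 0.049, adjusted p = 0.0342). The calls of Egr1 and Ier3 held under all 20 alternatives, with adjusted p of at most 0.00457 and 0.032. Those of Klf6, Klf9 and Egr3 did not. Klf9 lost its call when any library other than TNF-α+WBT replicate 1 was left out, with adjusted p of up to 0.109 (without Con replicate 2 or TNF-α+WBT replicate 2). Klf6 lost it without Con replicate 1 or 3 or any TNF-α+WBT library, with adjusted p of up to 0.0893. Egr3 lost it without Con replicate 3 or TNF-α+WBT replicate 1 or 3, with adjusted p of up to 0.0572.

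Separation from Con was complete in 7 of 10 genes (19.5% of all genes), Ier2 joining the list with 15.03, 14.6 and 15.6 FPKM, all just below the lowest Con library at 15.7. Its log2 difference of -0.18 did not pass (adjusted p = 0.291). Klf2 (-0.35, adjusted p = 0.423), Klf4 (0.15, 0.444), Klf10 (0.075, 0.612) and Ier5 (-0.058, 0.709) did not pass either.

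The transcript table shows which annotated forms carried these levels. Klf2, Ier2, Ier3 and Ier5 have 1 annotated transcript each, Egr1-201 made up all of Egr1, and Klf9-201, Klf6-201 and Klf4-201 at least 94.7% of theirs in every library. Klf10 was the exception: Klf10-201 made up 89.8% to 95.0% of the gene in 8 libraries, but 1.40 FPKM of 13.6 (10.3%) in TNF-α replicate 2. In that library Klf10-202 was assigned 11.4 FPKM, against at most 0.004 FPKM in any other, while the gene total stood between those of the other libraries. For Egr3, Egr3-204 held most of the level in 7 of 9 libraries, from 61.7% to 91.7%, but Egr3-201 held 64.3% in Con replicate 1 and the retained intron form Egr3-202 held 48.2% in TNF-α+WBT replicate 3. The fall of Egr3 is therefore reported for the gene only. The gene level sums forms of unlike length (1509 bases for Egr3-201 and 3940 for Egr3-204), so this division affects it too. In the model of estimated fragments the log2 fold change between TNF-α and Con was -0.62 (limma-voom adjusted p = 0.224), against -0.90 in the main test. The part of the division in this fall was not tested.

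**Figure D4:**
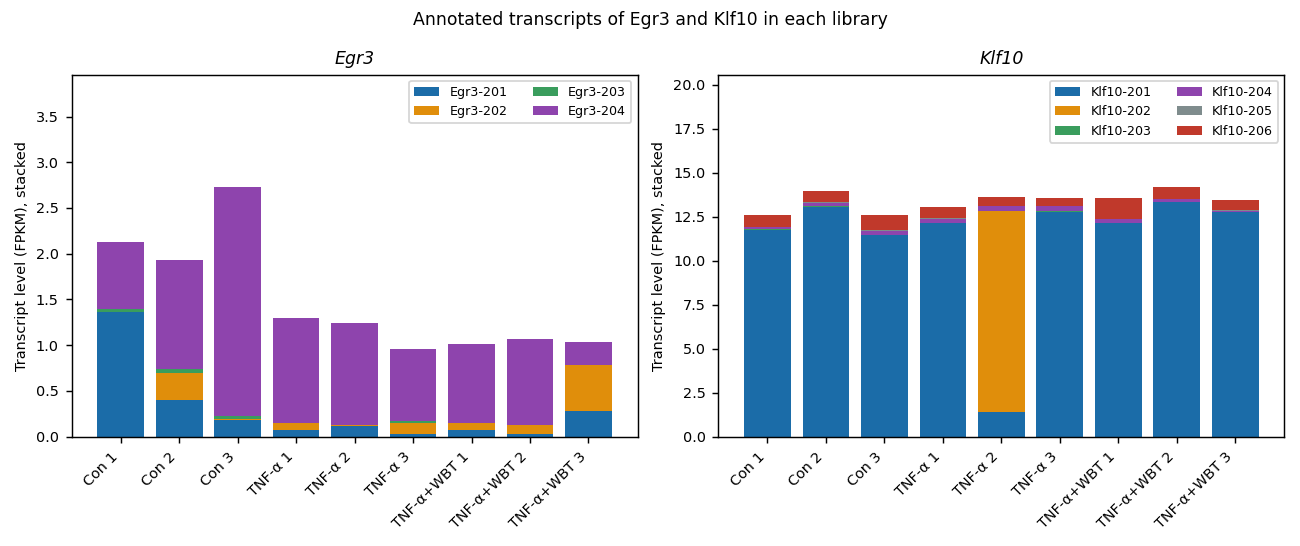
Annotated transcripts of Egr3 and Klf10 in each of the 9 libraries, stacked to the gene level (y axis, FPKM). The Klf10 bar of TNF-α replicate 2 is mostly Klf10-202 (11.4 FPKM), unlike the other 8, and the make-up of Egr3 varies within groups.

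The wider early response showed both directions as well. Of 30 other early response genes, 4 rose and 4 fell with TNF-α by the same test, where 2.94% of all genes rose and 1.93% fell, and 8.37% of the better expressed genes were called in either direction. Atf3, a stress-induced repressor, fell from 62.6 ± 0.576 to 20.7 ± 1.09 FPKM (SD, n = 3 each; log2 fold change -1.59, adjusted p = 5.71e-07), and Hes1, a Notch target, Gadd45a, a stress gene of growth arrest, and the orphan receptor gene Nr4a2 fell by 0.77, 0.65 and 0.63 on the log2 scale. Plk2, a kinase gene of the cell cycle and stress response, rose from 20.1 ± 0.623 to 40.8 ± 1.79 FPKM (1.02, adjusted p = 5.66e-06), followed by Gadd45b (0.50), an NF-κB target, Nr4a1 (0.34) and Ccn1 (0.27). The median log2 fold change of the list was -0.0015.

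Of the AP-1 genes, whose products pair as Jun and Fos family proteins and are induced in the same early wave, 9 of 10 were tested, 3 rose and 3 fell, against the same shares of all genes. Jun fell from 101 ± 1.77 to 40.2 ± 1.52 FPKM (SD, n = 3 each; -1.33, adjusted p = 1.18e-06), Fos from 9.18 ± 0.975 to 4.66 ± 0.557 (-0.96, adjusted p = 0.00638) and Fosl2 by 0.21 on the log2 scale, while Jdp2 (0.57), Junb (0.45) and Jund (0.25) rose. Among the MAP kinase phosphatase genes, which ERK signalling induces as feedback, 1 of 9 tested fell (Dusp5, from 3.88 to 1.73 FPKM, adjusted p = 0.00697), where 1.93% of all genes fell, and none rose. Of the genes upstream of the KLF, EGR and IER genes, none of 6 for SRF and its cofactors and none of 6 for MEK5, ERK5 and the MEF2 factors passed, with 1 and 2 respectively at an unadjusted p under 0.05, which 16.1% of all genes reached.

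In TNF-α+WBT against TNF-α none of the genes on these lists passed the adjusted threshold by limma. The smallest p among the other early response genes was that of Atf3, at 27.7 ± 0.898 FPKM (SD, n = 3) against 20.7 ± 1.09 (log2 difference 0.42, limma adjusted p = 0.0794). The KLF family had 2 of 15 genes at an unadjusted p under 0.05, Klf9 and the scarce Klf1, both higher. The other early response genes had 7 of 30 (Atf3, Hes1, Gadd45a and Tiparp higher, and Plk2, Ccn1 and Csrnp1 lower), the AP-1 genes 1 of 9, the phosphatase genes 2 of 9, the SRF list 1 of 6, the MEK5, ERK5 and MEF2 list 1 of 6, and the IER list 0 of 4 and the EGR and NAB list 0 of 6, where 6.31% of all genes did. Against Con, TNF-α+WBT had 1 higher and 2 lower of 15 KLF genes, 1 higher (Nab1, 0.30, adjusted p = 0.0444) and 2 lower of 6 EGR and NAB genes, and 3 higher and 5 lower of 30 other early response genes. Of all genes, 2.31% were higher and 1.4% lower at this adjusted threshold. The counts include Klf6, Klf9, Egr1 and Egr3, already described above.

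**Figure D5:**
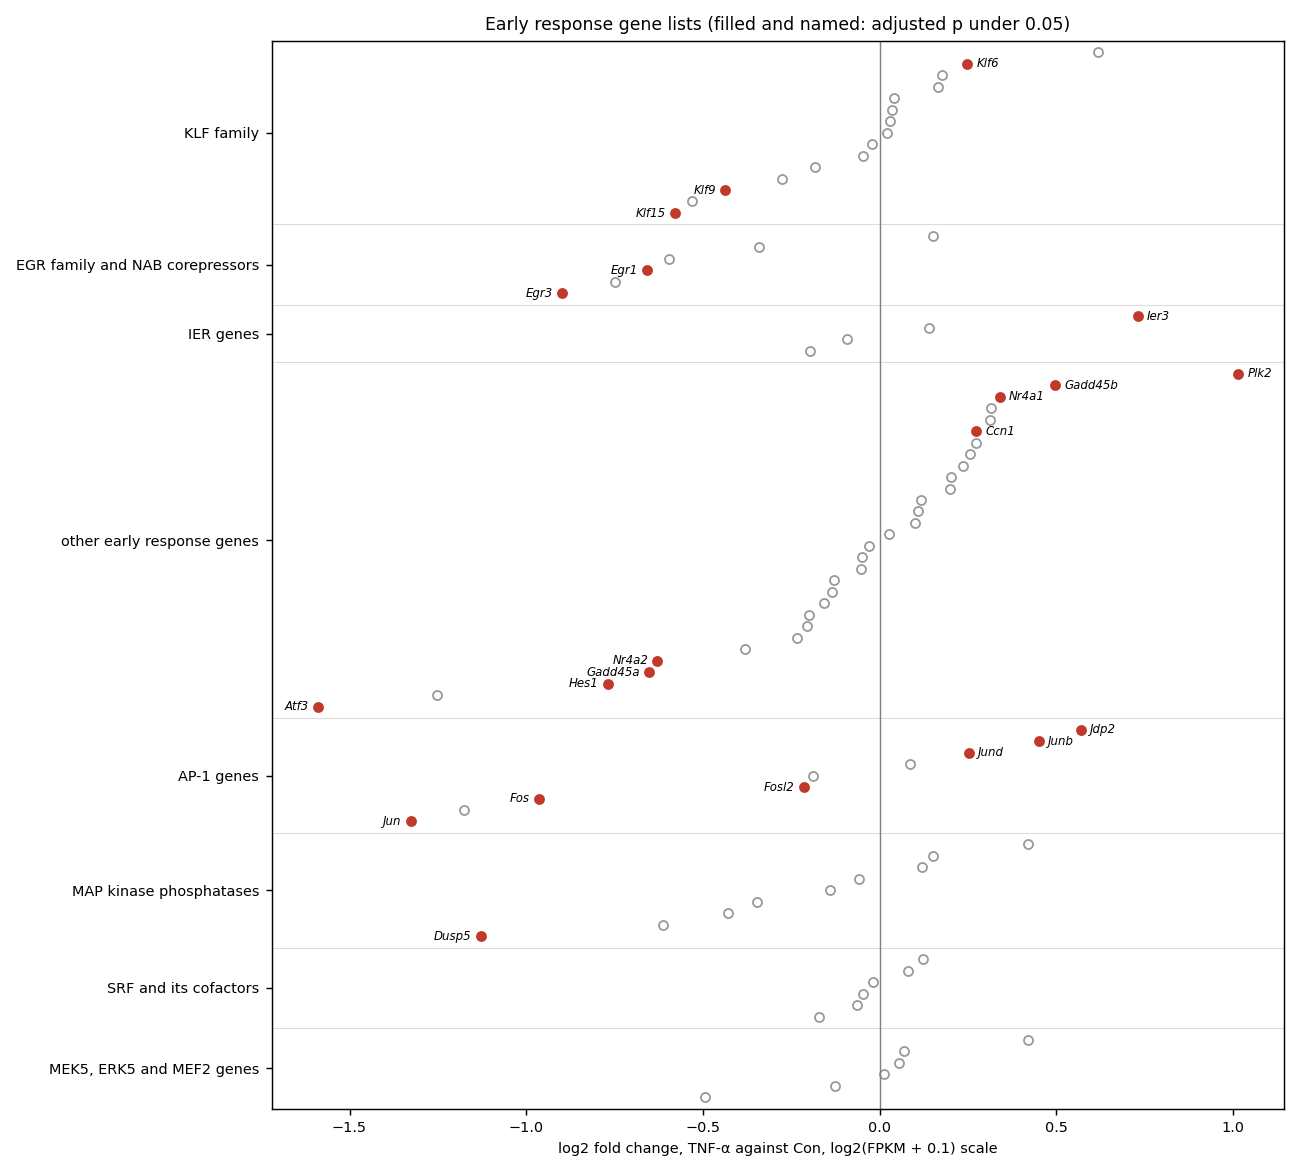
Log2 fold change between TNF-α and Con (x axis, log2(FPKM + 0.1) scale) of every tested gene on 8 early response lists, each point a gene, filled and named where the adjusted p was under 0.05. The EGR and NAB list has called genes only to the left (Egr1 and Egr3), and the KLF, other early response and AP-1 lists have them on both sides, from Atf3 at -1.59 to Plk2 at 1.02.

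For each of the 5 genes called between TNF-α and Con, the genes of at least 1 FPKM with the most similar pattern over the 9 libraries were found by the root mean square difference of their gene-centred log2 levels. Nearest to Ier3 were Trim7 (0.11), Ddx58 (0.13) and Cebpd (0.13), of which Ddx58 averaged 11.99 FPKM in Con and 22.8 in TNF-α and Cebpd 7.003 and 11.1. Nearest to Egr1 were Serinc5 (0.069), Gdnf (0.085) and Rflnb (0.093), and Gdnf went from 20.2 to 12.6 FPKM. Klf9 lay nearest to Aldh6a1 (0.037), Coro2b (0.051) and Snx30 (0.056). Like Klf9, all of them had TNF-α+WBT means between those of TNF-α and Con, which follows from choosing them by likeness to Klf9. Klf6 lay nearest to Trappc3 (0.032), Col12a1 (0.033) and Ak1 (0.040). Egr3 lay nearest to Tmem268 (0.15), Gm38255 (0.16) and Cryab (0.17). These distances depend on how much a gene itself varied and are not comparable between the 5 genes. The root mean square of the gene's own centred levels was 0.485 for Egr3, 0.4 for Ier3, 0.341 for Egr1, 0.184 for Klf9 and 0.125 for Klf6. The lists of nearest genes are descriptions over 9 libraries that share the same 3 group contrasts, and carry no test. Group means that move like those of the called gene follow from the choice by likeness.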

How the data were processed

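Poly(A) RNA of cells labelled RAW264.7 was sequenced as 9 paired-end libraries in 3 groups of 3. The authors deposited FPKM values for 56289 genes and 144726 transcripts. The paper's workflow names HISAT2, StringTie and Ballgown. Versions and the genome build are not given in the sources used here. StringTie divides fragments between transcripts, which affects transcript values more than gene values. The gene value of Egr3 is exposed to it as well, since its forms differ in length and their shares varied within groups. All columns were mapped to a library by their names. Gene symbols were found for 98.0% of identifiers in GENCODE M21 (GRCm38), from which positions are given, and the deposited tables hold no coordinates that could be compared with it. Older list symbols (Cyr61 and Ctgf among them) were matched through RefSeq synonyms.

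FPKM values state no depth, so it was estimated from the steps of low values in 10717 genes with 1 transcript longer than 1000 bases. Of those values 55.2% to 59.0% came within 0.1 of a whole fragment (20.0% by chance), so fragments are approximate and describe only counting error. The main test used log2(FPKM + 0.1) for every gene detected (over 0 FPKM) in 3 or more libraries, a scale that understates changes of low genes, with limma 3.58.1 in R 4.3.3 (1 mean per group over all 9 libraries, intensity trend, Benjamini-Hochberg over all 25417 genes tested). Intervals are 95% intervals from this model. The script was tested on simulated data. Alternatives covered the pseudocount, the low-value filter, the trend, quantile normalization, median centring, summed transcripts, a fit without the group not compared, a replicate block and leaving out each library, and limma-voom on estimated fragments was added after seeing the data.

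All 10 genes are named in each comparison. Outside them, the genes named are those of a list called between TNF-α and Con (at most 12 a list, in the order of absolute change), and for each called gene the 3 nearest in pattern. The other EGR, NAB and IER genes, Klf1, Tiparp, Csrnp1 and the nearest miss of TNF-α+WBT were named after their values were seen. The 10 genes and all lists, markers included, were chosen with earlier results of these data known. Promoter windows came from RefSeq (GRCm38.p6) and matched 6 of the 10 genes. Python 3.11.15, pandas 2.3.3, numpy 2.4.6 and matplotlib 3.10.9 were used.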

Additional observations from a re-analysis of the deposited data

Results flagged for a closer look

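Klf10-202, an annotated protein-coding transcript of Klf10, stood out in the transcript values, which the comparisons of gene levels do not use. It was assigned 11.4 FPKM in TNF-α replicate 2, at most 0.004 FPKM in each of the other 8 libraries, and at most 0.0015 FPKM in Con. Klf10-201 was assigned 1.40 FPKM in TNF-α replicate 2 and 11.4 to 13.4 FPKM elsewhere, and the gene level of 13.6 FPKM in that library lay within the range of the others (12.6 to 14.2 FPKM).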

How the results depend on the processing

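In TNF-α against Con, 5 of the 10 genes were called, 3 in a model of only the 2 groups compared, 4 with the replicate block, without the trend and in the fragment model, and 3 to 5 with a library left out. Klf9, Egr1 and Ier3 kept their call in all 20 alternatives (adjusted p at most 0.0132, 0.0063 and 0.0468), Klf6 lost it in 6 and Egr3 in 7. In TNF-α+WBT against Con, 5 were called, 3 without the trend, 3 with only the 2 groups and 3 with the replicate block, and 2 to 4 with a library left out. Klf6 lost its call in 7, Klf9 in 11 and Egr3 in 5. In TNF-α+WBT against TNF-α, none was called under any alternative. Its signs turned for 4 genes that were not called, with ranges over the left-out libraries of -0.070 to 0.019 for Klf4 (positive without TNF-α+WBT replicate 2), -0.036 to 0.022 for Klf6 (negative without TNF-α replicate 1, at -0.0099 and -0.0055 without TNF-α+WBT replicates 1 and 2, and -0.0030 in the fragment model), -0.021 to 0.073 for Ier2 (negative without TNF-α replicate 2, and -0.0057 without TNF-α+WBT replicate 3) and -0.037 to 0.24 for Ier3 (negative without TNF-α+WBT replicate 2). The cause was not tested. Over all genes, 1236 were called between TNF-α and Con (828 to 1845), 942 between TNF-α+WBT and Con (588 without Con replicate 3, to 1341) and 1 between TNF-α+WBT and TNF-α (0 to 11, the latter with a pseudocount of 0.01 or without TNF-α+WBT replicate 2). Libraries with the same replicate number correlated by -0.0674 to 0.0953 in their deviations, those with other numbers by -0.105 to 0.0966, and not every library correlated best with its own number, so the numbers were not treated as pairs. Low fragment numbers limit Egr3 and Klf2, and the division of fragments between forms of unlike length also limits Egr3.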
